A study of Mus musculus with 80 samples.

Results

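ADAMTS proteases are a family of secreted zinc metalloproteinases, and 7 of their genes were examined here: Adamts1, Adamts2, Adamts4, Adamts5, Adamts9, Adamts12 and Adamts15. They were taken by symbol, and all 7 were present among the 14560 genes measured. The series holds livers of 80 female C57BL/6J mice, 8 weeks old, which were wild type or Adamts12-/- and received one intraperitoneal dose of carbon tetrachloride (CCl4, 0.3 ml/kg, 3% v/v in olive oil) or olive oil alone as vehicle. CCl4 is a hepatotoxin that cytochrome P450 enzymes of hepatocytes around the central vein convert into a reactive radical. Collection took place 4 h, 12 h, 24 h or 7 days after the injection, so that 16 groups of 5 mice resulted, each mouse being 1 library. Which exons the Adamts12-/- allele lacks is not given in the sources used here, and the knockout is not stated to be limited to a cell type. Of the knockout 12 h libraries, CCl4 replicate 5 and vehicle replicate 1 were left out of all main results, because each resembled the opposite treatment. This left 78 libraries.

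These enzymes are made as inactive proforms, are activated mainly by furin-like proprotein convertases and act on the extracellular matrix after secretion. Adamts1, Adamts4, Adamts5, Adamts9 and Adamts15 are proteoglycanases, which cut versican and aggrecan. Adamts2 removes the amino-terminal propeptide of fibrillar procollagens, a step of collagen fibril assembly, and Adamts12 has been described as a protease of cartilage oligomeric matrix protein. In the liver, matrix is made mostly by stellate cells, which become collagen-producing myofibroblasts after injury.

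Promoter sequences are shown for the 3 members whose starts RefSeq gives and that rose together 24 h after CCl4, so that their letters can be read beside those values. RefSeq promoter windows of build GRCm38.p6 matched 4 of the 7 members, Adamts1, Adamts2, Adamts9 and Adamts12. Each line gives the 250 bases before the RefSeq start, 5′ to 3′ on the gene's strand. Capitals mark matches to the motifs searched.

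Adamts1, chr16:85803114-85803363, minus strand: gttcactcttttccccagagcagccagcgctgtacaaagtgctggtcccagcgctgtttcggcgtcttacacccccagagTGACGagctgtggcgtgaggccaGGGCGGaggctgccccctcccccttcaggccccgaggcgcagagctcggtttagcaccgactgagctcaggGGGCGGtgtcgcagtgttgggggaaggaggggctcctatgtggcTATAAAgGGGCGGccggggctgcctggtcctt
Adamts9, chr6:92943535-92943784, minus strand: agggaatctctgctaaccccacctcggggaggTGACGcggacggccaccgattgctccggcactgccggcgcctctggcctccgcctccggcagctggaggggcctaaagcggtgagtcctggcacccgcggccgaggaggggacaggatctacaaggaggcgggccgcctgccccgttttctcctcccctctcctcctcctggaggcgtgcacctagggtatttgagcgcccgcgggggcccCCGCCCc
Adamts12, chr15:11064523-11064772, plus strand: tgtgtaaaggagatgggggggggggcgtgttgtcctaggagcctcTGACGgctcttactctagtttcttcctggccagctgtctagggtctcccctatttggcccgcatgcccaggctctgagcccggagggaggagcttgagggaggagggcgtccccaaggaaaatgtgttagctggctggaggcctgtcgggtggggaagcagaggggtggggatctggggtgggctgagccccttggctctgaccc

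The 3 windows each held 1 copy of TGACG, the half-site of the cyclic AMP response element, at -170 from the start in Adamts1, at -218 in Adamts9 and at -205 in Adamts12. The window of Adamts2 held none. The 3 windows were chosen because their genes rose, and Adamts4, which also rose at 24 h, had no window. Whether TGACG goes with the response was not tested. TGACG occurred on either strand in 17.75% of all 32817 promoter windows, so its presence is common, and it overlaps the full element TGACGTCA, which was in none of the 4 windows. Adamts1 also had a TATA box (TATAAA) at -32, a motif found in 12.37% of windows, and 3 GC boxes (GGGCGG), found in 32.72% of windows. There were 5 GC boxes in the Adamts2 window, 1 in that of Adamts9 and none in that of Adamts12. The 12 motifs searched on both strands also included AP-1 (TGANTCA), the E-box (CACGTG), TEAD (GGAATG), the heat shock element (GAANNTTC), STAT (TTCNNNGAA), NF-kappaB (searched by its decamer), EGR (GCGGGGGCG) and the SRF CArG box. Of all windows 6.75% held the AP-1 motif, 1.55% the full cyclic AMP element, 6.02% the E-box, 12.64% TEAD, 6.69% the heat shock element and 7.01% STAT, and 0.36%, 2.57% and 1.47% held NF-kappaB, EGR and the CArG box. None of these matched in the 4 windows, which says only that these letters are not there.

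Depth ranged from 18.65 to 64.49 M reads per library. Albumin was the most abundant transcript, and the hepatocyte genes Apoa1, Ttr, Cps1 and Serpina1a ranked between 14 and 73 of 14560 by mean count, so the libraries carry the defining transcripts of liver. The left-out CCl4 library correlated across genes at 0.987 with the other knockout 12 h vehicle libraries and at 0.928 with those of its own label. For the left-out vehicle library the values were 0.989 with CCl4 and 0.918 with vehicle. The members' CCl4 differences at 12 h in the knockout, and the gene list counts there, are given with and without them. At 24 h in wild type, 2 libraries stood apart by summed markers of other cells. CCl4 replicate 4 had 14481 summed normalized counts of 8 myofibroblast genes, against 1437 to 4115 in the other 4, and 4113 of 8 portal fibroblast and mesothelial genes, against 155 to 202. Vehicle replicate 5 had 7868 myofibroblast counts, against 1314 to 2433. Replicate 5 was also the only wild-type 24 h vehicle mouse with a label number of 7000 or above. No pair of libraries held identical values.

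In vehicle-treated wild-type livers Adamts1 was the most abundant of the 7 per length of transcript, and Adamts12 the least. Per kilobase of merged exons the level was 56.3 ± 10.01 normalized counts for Adamts1 (SD, n = 20 for every gene here). Adamts2 followed at 14.97 ± 5.34 per kilobase and Adamts4 at 6.81 ± 3.89. Adamts9 at 5.27 ± 2.67, Adamts5 at 4.80 ± 2.60 and Adamts15 at 3.95 ± 2.48 were within their SDs of each other. Adamts12 stood at 1.63 ± 0.68 per kilobase. Only the first gap in this order, between Adamts1 and Adamts2, and the next, between Adamts2 and Adamts4, exceeded the larger SD of the pair. Apart from Adamts1, the members are scarce in whole liver: over all libraries the recovered reads of Adamts12 had a median of 12, and those of Adamts4 a median of 34. Counting error is therefore large for single libraries of Adamts12.

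The genes lie on 6 chromosomes of GRCm38. Adamts1 (ENSMUSG00000022893, chromosome 16, 85793827 to 85803113) and Adamts5 (ENSMUSG00000022894, chromosome 16, 85856173 to 85901828) lie on the same strand, 53.1 kb apart, with 1 gene between them. The other positions are chromosome 11, 50602084 to 50807573 for Adamts2 (ENSMUSG00000036545); chromosome 1, 171250421 to 171260637 for Adamts4 (ENSMUSG00000006403); chromosome 6, 92772699 to 92943492 for Adamts9 (ENSMUSG00000030022); chromosome 9, 30899155 to 30922452 for Adamts15 (ENSMUSG00000033453). Adamts12 (ENSMUSG00000047497) spans 11064790 to 11349231 on chromosome 15. Values are sums over the exons of a gene. The library kit keeps strand, but the strand setting of the counting is not given in the sources used here. Adamts9 shares 1381 exon bases with A730049H05Rik and 424 with Gm15737, both on the opposite strand. Of the 50-base words of Adamts9, 10.5% also occur in another gene, so reads of those stretches may be split or lost in its count.

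The first comparison asked how CCl4 changed the members at each time. Adamts1 and Adamts4 rose at 4 h and at 24 h, Adamts9 and Adamts12 rose at 24 h, and Adamts5 fell at 12 h, in both genotypes. In the knockout, the Adamts12 call was lost with a pseudocount of 8, and the Adamts5 call with all 80 libraries. Adamts2 and Adamts15 fell at 12 h in wild type. No member passed the test at 7 days. Of 28 member-by-time comparisons in wild type, 10 passed an adjusted p of 0.05 (limma on log2 of the normalized count plus 1, adjusted over all 14558 genes tested), 7 higher and 3 lower. Among all genes 38.3% of such comparisons passed, 19.6% higher and 18.7% lower. In the knockout 10 of 28 passed, 9 higher and 1 lower, against 32.6% of all (16.5% higher and 16.1% lower). Counted in either direction, the members' totals are near those of all genes.

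**Figure D1:**
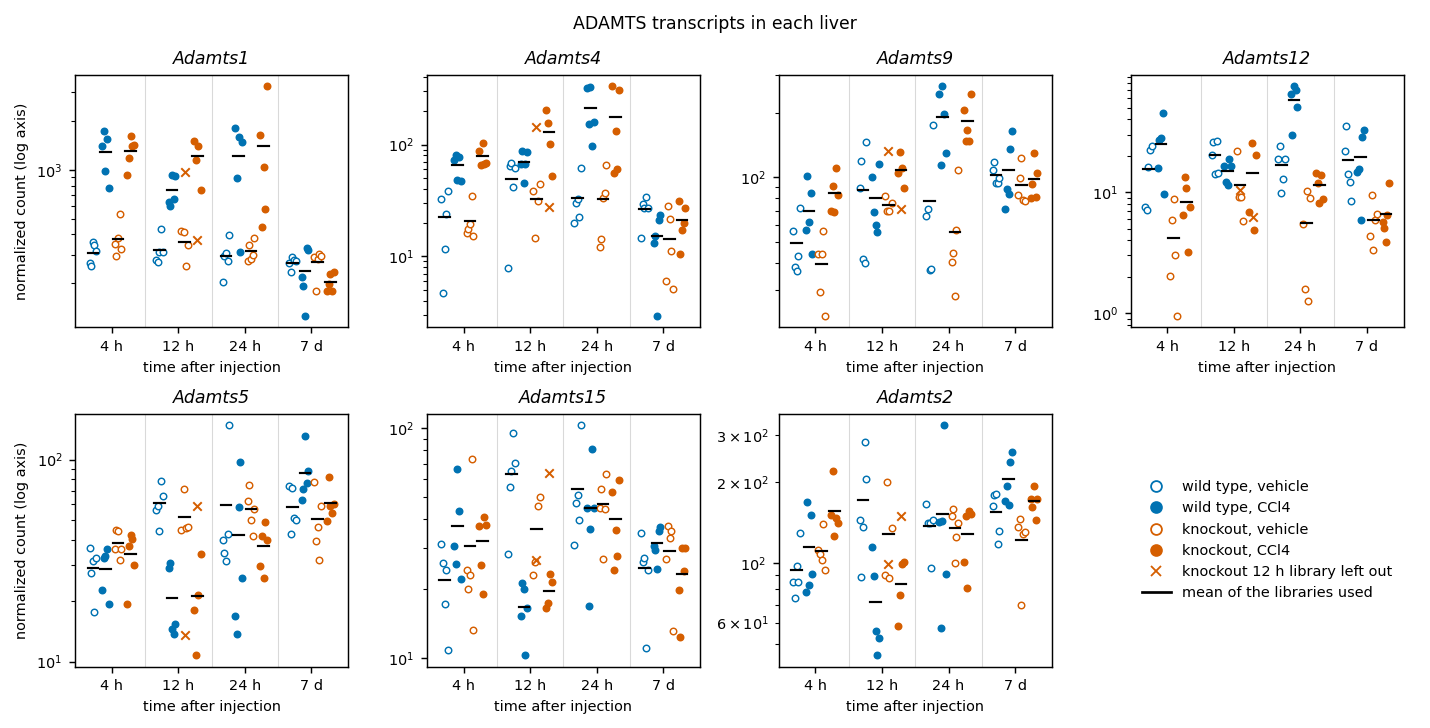
Normalized count (log axis) of each ADAMTS transcript in each liver, by time after injection. Open points are vehicle and filled points CCl4, blue is wild type and orange knockout, bars are means of the libraries used, and crosses mark both left-out knockout libraries of 12 h. Adamts1 and Adamts4 are high in CCl4 livers at 4 h and 24 h, and at 7 days CCl4 and vehicle livers of the same genotype overlap for every gene.

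Adamts1, a proteoglycanase that also restrains blood vessel growth, rose at 4 h, 12 h and 24 h in both genotypes. In wild-type vehicle livers at 4 h its normalized counts were 269, 255, 360.3, 345 and 318. With CCl4 they were 1395, 1723, 988, 1552 and 768. Every CCl4 liver was above every vehicle liver, and the log2 difference was 2.00 ± 0.31 (SE; limma adjusted p = 1.78e-07). The knockout gave 351, 293, 381, 537 and 324 with vehicle. After CCl4 the knockout values were 932, 1175, 1609, 1404 and 1430.03, again without overlap (1.80 ± 0.31, adjusted p = 2.35e-06). The summed markers of monocytes and macrophages overlapped at 4 h in wild type, 355 to 701 with CCl4 and 327 to 646 with vehicle, and in the knockout, 309 to 676 and 415 to 759. Other sums did separate at 4 h: those of 3 cholangiocyte genes were 79.8 to 216 with CCl4 and 40.1 to 72.8 with vehicle in wild type, where only Epcam passed the test, and the 1 adipose gene, Cidec, rose in both genotypes. The neutrophil sum was lower with CCl4 in the knockout (256 to 535 against 599 to 1044). Their part in the rise of Adamts1 and Adamts4 was not tested.

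At 12 h the wild-type Adamts1 values were 278, 269, 313, 431 and 314 with vehicle. With CCl4 they were 632, 598, 928, 657 and 921, without overlap (1.21 ± 0.31, adjusted p = 0.000656). The knockout, with 4 libraries a group, gave 419, 416, 256 and 347 with vehicle and 1510.2, 1155, 1409 and 754 with CCl4 (1.72 ± 0.35, adjusted p = 3.41e-05). With both left-out libraries, which held 368 counts under the CCl4 label and 976 under the vehicle label, that difference was 1.098 (adjusted p = 0.0219). At 24 h the spread widened. Wild-type CCl4 livers held 1803, 893, 1582, 310.3 and 1484 counts, and knockout CCl4 livers held 1635, 446, 1043, 576 and 3273. The lowest wild-type value was that of replicate 4, the library rich in myofibroblast and mesothelial markers, and it lay among the vehicle values of 205 to 396. Knockout replicates 2 and 4 were lowest of their group, and these libraries also had the fewest summed macrophage marker counts, 1763 and 1631 against 9997 to 11872. The 24 h differences were 1.84 ± 0.31 in wild type (adjusted p = 1.21e-06) and 1.77 ± 0.31 in the knockout (adjusted p = 3.87e-06). What part the mix of cells plays in this spread was not tested. In whole liver RNA, a change in the number of cells of a type and in the RNA per cell cannot be told apart.

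Adamts4, an aggrecanase known to be induced by inflammatory cytokines, rose at 4 h and 24 h in both genotypes. Its wild-type values at 4 h were 32.6, 4.72, 11.7, 24.1 and 38.4 with vehicle. CCl4 livers gave 73.1, 80.6, 48.7, 76.8 and 46.8, all above the vehicle range (1.77 ± 0.51, adjusted p = 0.00301). In the knockout the vehicle range was 15.2 to 34.7 and the CCl4 range 65.9 to 103 (1.92 ± 0.51, adjusted p = 0.00162). The largest difference of any member came at 24 h. Wild-type vehicle livers held 19.9, 30.2, 32.7, 22.6 and 61.2 counts at that time, and CCl4 livers held 321, 154, 328, 97.5 and 158. The groups did not overlap (2.59 ± 0.51, adjusted p = 1.73e-05). The knockout gave 12.1, 14.3, 33.3, 36.7 and 65.9 with vehicle and 334, 55.3, 133, 60.8 and 306 with CCl4 (2.29 ± 0.51, adjusted p = 0.000172). Here the lowest CCl4 values, again replicates 2 and 4, overlapped the highest vehicle value.

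At 12 h Adamts4 did not pass in wild type, where vehicle livers ranged from 7.86 to 68.3 and CCl4 livers from 45.0 to 87.9 (0.78 ± 0.51, adjusted p = 0.18). The knockout gave 38.6, 14.7, 31.3 and 44.6 with vehicle and 206, 155, 100.5 and 52.5 with CCl4, without overlap (1.89 ± 0.57, adjusted p = 0.00427). With both left-out libraries included it was 1.04 (adjusted p = 0.17). Those libraries held 27.4 counts under the CCl4 label and 145 under the vehicle label. They were left out for their likeness to the opposite treatment, so the larger value without them is in part fixed by that choice.

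Adamts9, a proteoglycanase also needed for vessel and cilium development, was higher at 24 h. Its wild-type vehicle values were 66.4, 71.3, 37.0, 37.6 and 175. With CCl4 they were 244, 115, 266, 198 and 130.3, and only vehicle replicate 5 reached into the CCl4 range (1.46 ± 0.31, adjusted p = 7.02e-05). The knockout values were 40.7, 44.6, 28.2, 57.0 and 108 with vehicle and 206, 148, 166, 148 and 244 with CCl4, without overlap (1.81 ± 0.31, adjusted p = 2.47e-06). Leaving out wild-type CCl4 replicate 4 and vehicle replicate 5 gave 1.78 (adjusted p = 4.55e-06). When all mice with a label number below 7000 were left out, vehicle replicate 5 alone stood for wild-type vehicle at 24 h, and the difference was 0.05 (adjusted p = 0.958). The knockout mice, among which no number was below 7000, gave the difference of 1.81 above. At 4 h the knockout alone passed the test, with 44.1, 29.4, 44.2, 56.6 and 22.8 for vehicle and 69.6, 91.3, 69.4, 111 and 83.0 for CCl4 (1.13 ± 0.31, adjusted p = 0.0024). The wild-type difference was 0.48 ± 0.31 (adjusted p = 0.221), and the test of the difference between genotypes did not pass (0.66 ± 0.44, adjusted p = 1).

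Adamts12, the gene deleted in the knockout line, was highest of all groups in wild-type livers 24 h after CCl4. Those livers held 64.8, 29.8, 75.6, 70.0 and 50.3 counts, against 18.8, 24.3, 9.80, 12.8 and 18.8 with vehicle. The groups did not overlap (1.72 ± 0.45, adjusted p = 0.00101). At the other 3 times the wild-type groups overlapped, and the differences were 0.65 ± 0.45 at 4 h, -0.39 ± 0.45 at 12 h and 0.04 ± 0.45 at 7 days, none past the threshold. In the wild-type livers of 24 h the summed monocyte and macrophage markers were higher too, 468 to 1308 with vehicle and 4779 to 15345 with CCl4, and 7 of their 8 genes passed the test. Of the 8 myofibroblast genes 2 rose, near the share of all genes that rose at that time (26.2%). No gene of either list was at 0 in a whole group. Their part in the rise of Adamts12, Adamts9 and Adamts4 was not tested. Without the mice numbered below 7000, the wild-type 24 h differences were 1.51 for Adamts12 (adjusted p = 0.166), 1.62 for Adamts4 (adjusted p = 0.196) and 1.38 for Adamts1 (adjusted p = 0.0705). That fit compared the 5 CCl4 livers with a single vehicle liver, assumed to vary like the other groups.

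**Figure D2:**
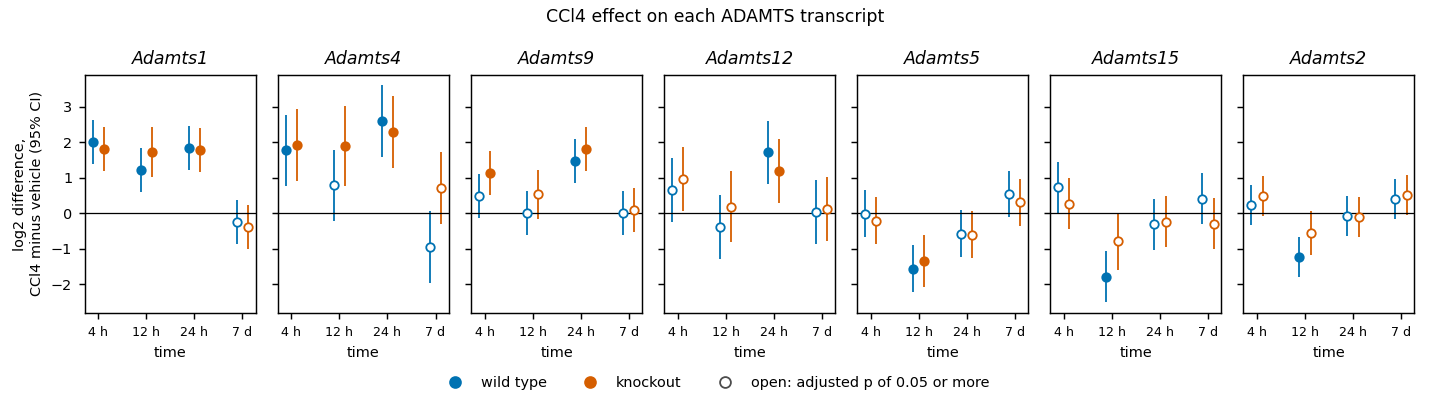
Log2 difference between CCl4 and vehicle livers for each ADAMTS transcript at 4 times, with 95% confidence intervals from limma. Filled points passed an adjusted p of 0.05, blue is wild type and orange knockout. Adamts1 lies above 0 from 4 h to 24 h in both genotypes, Adamts5 lies below 0 at 12 h in both, and the 14 intervals at 7 days hold no filled point.

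The second pattern was a fall at 12 h. Adamts5, regarded as the main aggrecanase of mouse cartilage, had wild-type vehicle values of 56.6, 59.1, 44.1, 78.2 and 66.1 at that time. After CCl4 they were 29.1, 30.9, 14.5, 13.7 and 15.3. The 2 highest, replicates 1 and 2, were the only wild-type 12 h mice with a label number below 7000. The groups were separate (-1.57 ± 0.33, adjusted p = 4.58e-05). The knockout values were 44.7, 71.2, 46.0 and 46.2 with vehicle and 18.0, 10.8, 21.3 and 34.3 with CCl4, also separate (-1.34 ± 0.37, adjusted p = 0.00202). Both left-out libraries went against their labels here too, 58.6 counts for CCl4 and 13.6 for vehicle. With them the difference was -0.67 (adjusted p = 0.197). At 24 h Adamts5 did not pass in either genotype (-0.58 ± 0.33 and -0.61 ± 0.33). Without wild-type CCl4 replicate 4 of 24 h, which held 97.5 counts, the wild-type value was -0.97 (adjusted p = 0.00881). Leaving out vehicle replicate 5 of 24 h as well gave a wild-type value of -0.58 (adjusted p = 0.106). Without the mice numbered below 7000 it was -2.16 (adjusted p = 0.00357), a value set by vehicle replicate 5, the single vehicle library left, which at 148 counts lay far above the other 4 (31.6 to 42.9).

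Adamts15, a proteoglycanase related in sequence to Adamts1 and Adamts4, fell most at 12 h in wild type. Vehicle livers held 28.3, 55.6, 65.0, 95.4 and 70.4 counts. CCl4 livers held 15.2, 21.1, 19.8, 10.3 and 16.4, all below the lowest vehicle value (-1.80 ± 0.36, adjusted p = 1.93e-05). The knockout values were 22.9, 26.0, 46.0 and 50.3 with vehicle and 16.4, 17.3, 23.2 and 21.4 with CCl4, a difference of -0.79 that missed the threshold (adjusted p = 0.0994; -0.39 and 0.496 with both left-out libraries). Adamts2 likewise went from 145, 88.6, 137, 284 and 207 to 115, 89.7, 55.7, 45.4 and 52.5 in wild type. The 2 highest CCl4 values overlapped the lowest vehicle value (-1.23 ± 0.28, adjusted p = 0.00013). They too were those of replicates 1 and 2, the mice with label numbers below 7000. In the knockout Adamts2 was 88.3 to 200.1 with vehicle and 58.3 to 101 with CCl4 (-0.57 ± 0.31, adjusted p = 0.13; -0.34 and 0.424 with both left-out libraries).

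Neither gene was shown to differ in response between the genotypes: the interaction at 12 h was 1.01 ± 0.54 for Adamts15 (95% interval -0.07 to 2.09; 1.41 with all 80 libraries) and 0.67 ± 0.42 for Adamts2 (95% interval -0.17 to 1.501; 0.90 with all 80 libraries). Markers of resident cells moved in the same livers. In wild type at 12 h all 9 sinusoidal endothelial genes fell, with a summed level of 3694 to 7607 after CCl4 and 8395 to 15626 with vehicle, and 5 of 7 Kupffer cell genes fell. Of 11 quiescent stellate genes 4 fell, with sums of 6883 to 10393 and 9102 to 16233. All 5 hepatocyte genes fell too. Among all genes 29.4% fell, so the stellate count is near that share. In the knockout at 12 h, 4 of the 9 endothelial, 5 of the 7 Kupffer, 3 of the 11 stellate and 4 of the 5 hepatocyte genes fell. Of all genes 23.1% fell there, and the stellate count is again near that share. With all 80 libraries these counts were 0, 0, 1 and 1, where 6.26% of all genes fell. No gene of these lists was at 0 in a whole group, and their part in the fall of Adamts5, Adamts15 and Adamts2 was not tested.

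Read time by time, 2 of 7 members rose and none fell in wild type at 4 h, against 23.1% and 20.5% of all genes. The median of the 7 log2 differences was 0.65, and that of all genes -0.03. At 12 h 1 member rose and 3 fell (29.0% and 29.4% of all genes), with a median of -0.39 beside -0.05. At 24 h 4 rose and none fell (26.2% and 25.0%), with a median of 1.46 beside 0.04. In the knockout 3 rose and none fell at 4 h (21.1% and 17.7% of all genes), 2 rose and 1 fell at 12 h (23.6% and 23.1%), and 4 rose and none fell at 24 h (21.1% and 23.0%). With all 80 libraries 1 member rose and none fell at 12 h in the knockout, against 10.2% and 6.26% of all genes. The knockout medians were 0.97, 0.18 and 1.19, beside 0.00 at 4 h, -0.03 at 12 h and 0.02 at 24 h for all genes. At 7 days 0 of 7 members passed limma's test in either genotype, and 0 had an unadjusted p under 0.05. Few genes passed anywhere in the table at that time, 0.0550% in wild type and 0.694% in the knockout. The 7-day differences of the members ranged from -0.95 for Adamts4 to 0.54 for Adamts5 in wild type. In the knockout they ranged from -0.39 for Adamts1 to 0.71 for Adamts4.

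The size of the CCl4 effect differed between the times for all 7 members in wild type by an F test in limma, with adjusted p from 3.25e-05 for Adamts1 to 0.0176 for Adamts12. Of all genes 62.9% passed this test. In the knockout Adamts1, Adamts5 and Adamts9 passed (51.7% of all genes). The call of Adamts5 in the knockout was lost without CCl4 replicate 2 of 12 h (adjusted p = 0.0885), without vehicle replicate 3 of 12 h (0.0663), without CCl4 replicate 2 of 7 days (0.0519) and without vehicle replicate 4 of 7 days (0.0564). With all 80 libraries its adjusted p was 0.313. Without the mice numbered below 7000, a single library stood for wild-type vehicle at 24 h and another for wild-type CCl4 at 7 days. That fit cannot show which of the 7 wild-type calls depend on those mice.

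The second comparison was between genotypes, and began with the deleted gene. Adamts12 averaged 23.6 ± 16.6 normalized counts over the 40 wild-type libraries and 8.23 ± 5.52 over the 38 knockout libraries used (SD). It was lower in the knockout in 8 of 8 conditions, with a log2 difference of -1.37 ± 0.16 over all of them (adjusted p = 9.52e-09). A two-sided permutation test that exchanged genotypes within each condition returned 1e-05, the smallest p possible with 100000 permutations. Among all genes 0.591% passed the same limma test. Knockout libraries still had 1 to 66 recovered reads, with a median of 8, against 6 to 76 and a median of 17 in wild type. Gene-level counts cannot say from which exons those reads came. The genotype gap was widest 24 h after CCl4, where knockout livers held 14.4, 12.0, 8.18, 13.9 and 8.84 counts, all below the wild-type values given above (-2.21 ± 0.45, adjusted p = 0.0423). This was 1 of 28 member comparisons of the genotypes after CCl4 that passed, against 0.155% of all genes' comparisons, and 0.0137% of all genes passed at that time. That call is near the threshold: leaving out 1 library at a time gave adjusted p from 0.0113 to 0.141, and it was lost without wild-type replicate 1, 3 or 5 or knockout replicate 2, 3 or 4.

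In the knockout itself Adamts12 rose at 24 h, from 5.50, 1.59, 10.3, 1.27 and 9.03 with vehicle to 14.4, 12.0, 8.18, 13.9 and 8.84 with CCl4 (1.19 ± 0.45, adjusted p = 0.0253). The highest vehicle values overlapped the lowest CCl4 values. This call was lost without CCl4 replicate 1, vehicle replicate 2 or vehicle replicate 4, with adjusted p up to 0.121. The rise in the knockout was not shown to differ from that in wild type (interaction -0.52 ± 0.63, 95% interval -1.79 to 0.74, adjusted p = 0.938).

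None of the other 6 members passed the test between genotypes in a single condition. Over the 8 conditions the knockout minus wild-type difference was 0.15 ± 0.11 for Adamts1 (95% interval -0.07 to 0.37). It was -0.01 ± 0.10 for Adamts2 (-0.21 to 0.19) and -0.05 ± 0.18 for Adamts4 (-0.41 to 0.32). For Adamts5 it was 0.01 ± 0.12 (-0.22 to 0.25), for Adamts9 -0.03 ± 0.11 (-0.25 to 0.19) and for Adamts15 -0.10 ± 0.13 (-0.36 to 0.16). None passed the threshold, and the intervals leave room for differences of up to 0.41 on the log2 scale in the widest case, that of Adamts4. After vehicle 0 of 28 comparisons passed limma's adjusted test, 4 had an unadjusted p under 0.05, and 0.0996% of all genes' comparisons passed. Of 28 interaction terms 0 passed and 1 had an unadjusted p under 0.05, that of Adamts4 at 7 days (1.66 ± 0.72, 95% interval 0.24 to 3.09, adjusted p = 0.365). Among all genes 0.00343% of interaction terms passed. The Adamts4 counts at 7 days were 14.5, 29.7, 27.3, 34.3 and 26.8 in wild-type vehicle livers and 13.1, 15.1, 2.94, 20.97 and 23.6 in wild-type CCl4 livers. They were 6.08, 28.2, 21.6, 11.1 and 5.10 in knockout vehicle livers and 31.0, 10.6, 17.4, 19.9 and 27.3 in knockout CCl4 livers, and the 4 groups overlapped.

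**Figure D3:**
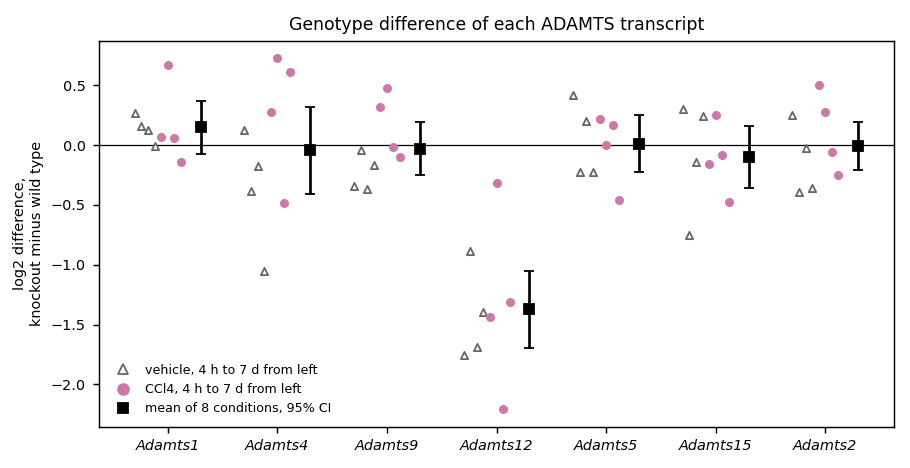
Log2 difference of knockout minus wild type for each ADAMTS transcript in each of 8 conditions (open triangles vehicle, filled circles CCl4, ordered 4 h to 7 d from the left) and their mean with its 95% confidence interval (black square). For Adamts12 all 8 points lie below 0, and for the other 6 transcripts the interval of the mean spans 0.

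The vehicle livers were not constant over time. Adamts15 had wild-type vehicle counts of 31.4, 25.9, 17.1, 24.1 and 10.8 at 4 h. At 12 h, as given above, they ran from 28.3 to 95.4, and at 7 days they were 35.0, 26.0, 27.3, 11.02 and 24.0. The 12 h group was the highest of all 16 for this gene, and the fall after CCl4 at 12 h was measured from that level. The F test over the 4 vehicle times gave an adjusted p of 0.000661 for Adamts15, 0.0267 for Adamts5 and 0.0264 for Adamts9 in wild type (38.9% of all genes passed). In the knockout Adamts9 passed (adjusted p = 0.00321; 41.7% of all genes), with 22.8 to 56.6 counts at 4 h and 77.9 to 123 at 7 days. The wild-type call of Adamts5 was lost without vehicle replicate 2 or 4 of 4 h (adjusted p = 0.0576 and 0.133), and with all 80 libraries (0.0599). That of Adamts9 was lost without vehicle replicate 2, 3 or 4 of 4 h or replicate 2 of 7 days (0.0565 to 0.0706), and when only the groups compared were fitted (0.108). Label numbers moved with time too: 4 of 5 wild-type vehicle mice at 24 h and 2 of 5 at 7 days had a number below 7000, and none at 4 h or 12 h. Without these mice, replicate 5 alone stood for wild-type vehicle at 24 h. It held 148 counts of Adamts5 (the others 31.6 to 42.9), 175 of Adamts9 (37.0 to 71.3) and 103 of Adamts15 (31.0 to 51.2). That fit therefore cannot show whether these changes over time depend on the label numbers.

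The order of the 16 group means put CCl4 groups of 24 h first for 4 members. Adamts1 was highest in knockout CCl4 livers at 24 h (1395 ± 1149, SD, n = 5) and lowest in knockout CCl4 livers at 7 days (204 ± 26.5). Adamts4, Adamts9 and Adamts12 were highest in wild-type CCl4 livers at 24 h, at 212 ± 106, 190.5 ± 67.1 and 58.1 ± 18.4. Adamts2 and Adamts5 had their highest means in wild-type CCl4 livers at 7 days (205 ± 41.6 and 85.6 ± 26.5). Both were lowest in wild-type CCl4 livers at 12 h (71.7 ± 29.7 and 20.7 ± 8.55), as was Adamts15 (16.6 ± 4.25). Neighbours in these orders rarely differed beyond their spread. Of 15 steps between adjacent means, the gap exceeded the larger SD in 2 for Adamts1, in 1 each for Adamts9 and Adamts12, and in 0 for the other 4.

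Some members varied together. Over the 16 group means Adamts1 and Adamts4 went together (Pearson r = 0.89, a description over groups that share libraries with the tests above), as did Adamts2 and Adamts5 (r = 0.87), while Adamts1 and Adamts5 ran opposite (r = -0.76). Mouse-to-mouse deviations within groups, over 78 libraries, gave the same pairs at lower values, 0.50 for Adamts1 with Adamts4 and 0.53 for Adamts2 with Adamts5. Adamts1 and Adamts5, close together on chromosome 16, had r = -0.17 within groups. Within groups Adamts4 followed the mean of the neutrophil list (r = 0.61) and of the monocyte and macrophage list (0.57). Its values were little lower with the Kupffer (0.51), sinusoidal endothelial (0.50) and other endothelial (0.47) lists. Adamts2, Adamts5 and Adamts9 followed the myofibroblast list (0.57, 0.55 and 0.57), and Adamts2 followed the list of proteoglycan and matrix substrates (0.66). Adamts2 came near this with the quiescent stellate list (0.53), and Adamts5 with the portal fibroblast and mesothelial list (0.51). Both wild-type 24 h libraries high in myofibroblast markers are among the 78, and no correlation was computed without them. Adamts1 had its highest within-group value with any cell type of more than 1 gene for neutrophils, 0.29, and its lowest for portal fibroblasts and mesothelium, -0.41. Adamts12 and Adamts15 followed none of the cell types drawn above 0.32. These values come from the same libraries and depth, and low counts limit those of Adamts12.

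**Figure D4:**
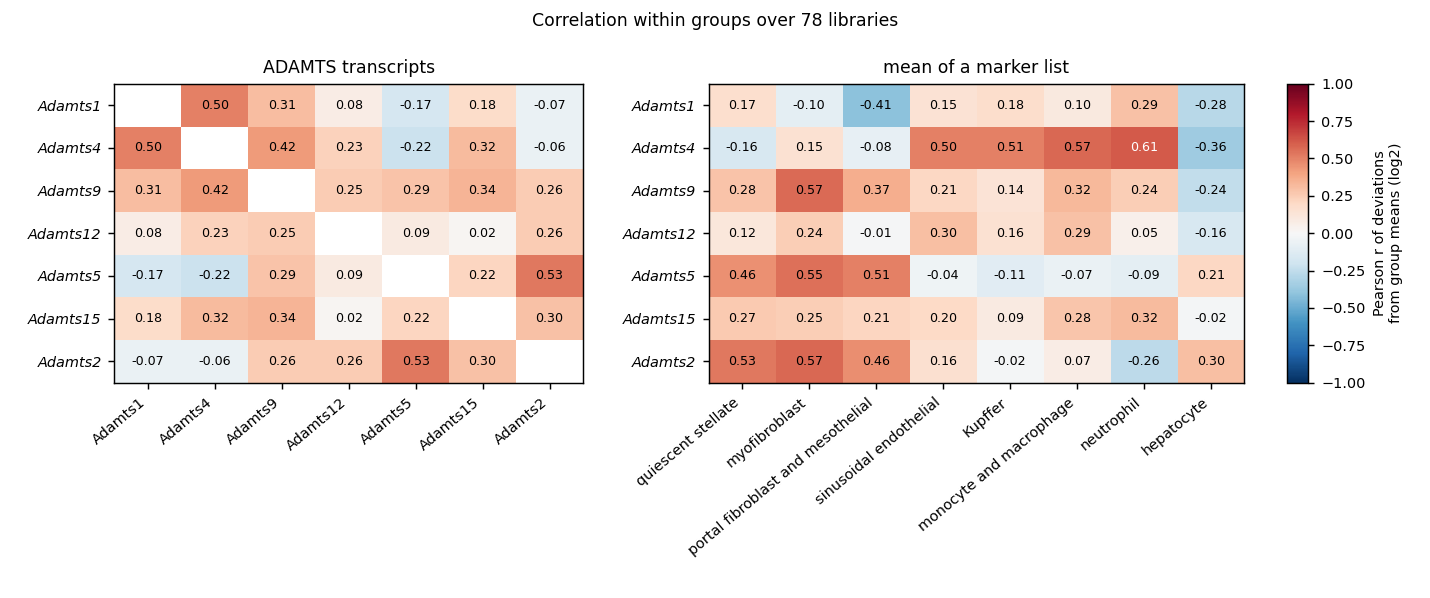
Pearson correlation, over 78 libraries, of deviations from group means on the log2 scale, between ADAMTS transcripts (left) and between each transcript and the mean of a marker list (right). Adamts4 is highest with neutrophil (0.61) and macrophage (0.57) markers, and Adamts2, Adamts5 and Adamts9 with myofibroblast markers (0.55 to 0.57).

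The genes most like each member over the 16 group means were found among 10021 named genes with a mean of at least 100 counts. For Adamts1 these were Prkx, Dnajc5 and Abl2 (r = 0.98, 0.97 and 0.97), which also went with it within groups (0.53, 0.65 and 0.66). For Adamts4 they were Clcn5, Myo9b and Aak1 (0.97, 0.95 and 0.94; within groups 0.58, 0.56 and 0.44). Adamts2 was nearest to Tcf7l1, Timp2 and Lbh (0.87, 0.86 and 0.85), of which Timp2, a metalloproteinase inhibitor, also went with it within groups (0.66). For Adamts9 the nearest was Smtn, a smooth muscle protein, at 0.93 (within groups 0.46), then Dnmt1 and Jpt1 (0.91 and 0.86). Adamts5 was nearest to Bscl2, Cd81 and Emc10 (0.93, 0.93 and 0.92; within groups 0.36, 0.21 and 0.13). The nearest genes of Adamts15, which were Tlk1, Cp and Ube2e2 (0.89, 0.83 and 0.83), and of Adamts12, which were Rhoj, Prelid2 and Pde7a (0.77, 0.69 and 0.67), reached at most 0.22 within groups.

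Among other genes of the family, Adamts14 rose and Papln fell at 12 h and 24 h in both genotypes. Of 20 further ADAMTS and ADAMTS-like genes 11 were in the table. In wild type at 12 h 1 of the 11 rose and 5 fell, where 29.0% and 29.4% of all genes did, and at 24 h 1 rose and 4 fell (26.2% and 25.0% of all genes). In the knockout 1 rose and 4 fell at 12 h (23.6% and 23.1%), and 1 rose and 2 fell at 24 h (21.1% and 23.0%). With all 80 libraries none rose and 1, Papln, fell at 12 h in the knockout. The gene that rose was Adamts14, a procollagen N-propeptidase related to Adamts2, by 1.16 ± 0.31 in wild type and 1.37 ± 0.35 in the knockout at 12 h (adjusted p = 0.00102 and 0.0008; 0.0734 in the knockout with all 80 libraries). At 24 h its differences were 1.76 ± 0.31 and 1.69 ± 0.31 (adjusted p = 2.82e-06 and 8.56e-06). Adamts2 itself was not higher at either time. Adamts13, which cleaves von Willebrand factor and is made by stellate cells, fell by 1.37 ± 0.26 in wild type at 12 h (adjusted p = 8.08e-06) and by 0.72 ± 0.29 in the knockout (adjusted p = 0.0382; 0.333 with all 80 libraries). Papln, Adamts10 and Adamtsl2 fell at 12 h in both genotypes, and Adamts7, the closest relative of Adamts12, fell in wild type by 1.05 ± 0.36 (adjusted p = 0.0109). At 4 h Adamts14 rose in wild type (0.79 ± 0.31) and Adamts6 in the knockout (0.89 ± 0.36). The median of the 11 was -0.61 at 12 h and -0.49 at 24 h in wild type.

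Known substrates in matrix and plasma included genes that fell at 12 h, among them Fn1, and genes that rose at 24 h, among them Nid1 and Thbs1. Of 22 measured, 1 rose and 12 fell in wild type at 12 h (29.0% and 29.4% of all genes; median -0.57). In the knockout 3 rose and 6 fell at 12 h, near the shares of all genes (23.6% and 23.1%), and 1 rose and 2 fell with all 80 libraries. At 24 h 5 rose and 2 fell in wild type (26.2% and 25.0% of all genes). In the knockout 6 rose and 3 fell (21.1% and 23.0%), so most passed in neither direction. Fibronectin (Fn1) differed by -1.85 ± 0.29 in wild type at 12 h, Tfpi2 by -1.51 ± 0.25, Fbln5 by -1.80 ± 0.47 and Sdc4 by -0.76 ± 0.19 (adjusted p of 0.00085 or less). At 24 h Nid1, a basement membrane linker, rose by 1.97 ± 0.28 in wild type (adjusted p = 3.58e-08) and Thbs1, which has the repeat that ADAMTS proteins share, by 3.83 ± 0.68 (adjusted p = 3.22e-06). Versican (Vcan), the proteoglycan cut by Adamts1, Adamts4, Adamts5, Adamts9 and Adamts15, rose at 24 h by 2.21 ± 0.76 in wild type and 2.92 ± 0.76 in the knockout (adjusted p = 0.0121 and 0.00124). It was named after its values were seen. Aggrecan and Comp were not analysed here.

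Among inhibitors and clearance receptors, Lrp1 and Mug1 fell at 12 h and 24 h in both genotypes. Of 11 measured, none rose and 8 fell in wild type at 12 h (29.4% of all genes fell; median -1.34), and none rose and 6 fell at 24 h (25.0% of all genes fell). Papln is also among the 11 relatives above. In the knockout 5 fell at 12 h (23.1% of all genes), or 4 with all 80 libraries, and 5 fell at 24 h (23.0%), when Timp3, an inhibitor of Adamts4 and Adamts5, was the 1 that rose (0.92 ± 0.25, adjusted p = 0.0023). Lrp1, the receptor that takes up Adamts5 and Adamts4, differed by -2.34 ± 0.27 in wild type (adjusted p = 2.87e-11) and -1.93 ± 0.30 in the knockout (adjusted p = 2.19e-07; 0.0141 with all 80 libraries) at 12 h. It was lower already at 4 h (-1.30 ± 0.27 and -1.30 ± 0.27). Pzp and Mug1, plasma macroglobulins that trap proteases, differed by -2.15 ± 0.25 and -2.12 ± 0.28 in wild type at 12 h, and Lrpap1 by -0.94 ± 0.11 (adjusted p of 1.9e-09 or less). Several of these are hepatocyte products, and the hepatocyte markers fell in the same livers, as given above. What part the hepatocyte content plays in these falls was not tested.

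Procollagen genes and their processing enzymes moved in both directions. Of 13 measured, 3 rose and 5 fell in wild type at 12 h (29.0% and 29.4% of all genes), and 4 rose and 1 fell at 24 h (26.2% and 25.0%). The knockout gave the same numbers at 24 h (21.1% and 23.0% of all genes). In the knockout 3 rose and 1 fell at 12 h (23.6% and 23.1%), or 1 and 1 with all 80 libraries (10.2% and 6.26%). The prolyl hydroxylases P4ha1, P4ha2 and P3h1 rose at 4 h, 12 h and 24 h in both genotypes (with all 80 libraries P4ha1 and P3h1 did not pass in the knockout at 12 h), P4ha1 by 1.99 ± 0.19 in wild type at 4 h (adjusted p = 1.62e-13) and P4ha2 by 2.34 ± 0.26 at 12 h (adjusted p = 1.57e-11). Bmp1, the procollagen C-proteinase, fell by 1.43 ± 0.14 in wild type at 12 h (adjusted p = 8.18e-14) and by 1.01 ± 0.15 in the knockout (with all 80 libraries by 0.58, adjusted p = 0.0169). Adamts2, which acts on the opposite end of procollagen, fell with it in wild type at 12 h. At 7 days no gene of these 4 lists passed the test in either genotype.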

How the data were processed

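Total liver RNA was prepared with a stranded mRNA kit and sequenced, per the labels' protocols. The deposited table gives a normalized signal per gene, and by the spacing of its values these are read counts divided by 1 factor for each library. How the authors set that factor is not given in the sources used here. STAR, HTSeq, DESeq2 and GRCm38 are named in the submitters' processing notes, without versions. Whole reads were recovered from that spacing to describe the depth of libraries and members, and entered no test.

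Libraries were grouped by labelled genotype, treatment and time. Values were taken as log2(normalized count + 1), and a filter of 10 normalized counts or more in 5 or more libraries passed 14558 genes to limma 3.58.1 (R 4.3.3, trend), with 16 group means fitted to 78 libraries. Each contrast was adjusted by Benjamini-Hochberg over all genes, with a threshold of 0.05. Fold changes on this scale understate those of low genes. Genes had a median residual SD of 0.332 (log2). The fit was tested on simulated data.

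The 7 members and the gene lists were chosen with earlier results of these data known. Named were all members, all measured ADAMTS relatives, up to 4 genes with the smallest adjusted p per list and comparison, and the 3 genes most like each member. Alternatives changed the pseudocount, filter, scaling, libraries and model. Nothing says more of the mice than one per library, so p-values measure the spread between these livers.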

Additional observations from a re-analysis of the deposited data

Results flagged for a closer look

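Within groups of 4 or 5 livers, 1 library stood far from the rest by Dixon's test in 10 of 112 gene-by-group sets, where chance gives about 5.6. Wild-type vehicle replicate 5 of 24 h was one for 3 genes, at 148 counts for Adamts5 (the others 31.6 to 42.9), 175 for Adamts9 (37.0 to 71.3) and 103 for Adamts15 (31.0 to 51.2). Knockout vehicle replicate 4 of 4 h was one for Adamts4 (34.7, the others 15.2 to 19.4) and Adamts15 (73.2, the others 13.3 to 24.1). Adamts1 was high in wild-type vehicle replicate 4 of 12 h (431, the others 269 to 314) and low in knockout vehicle replicate 2 of 7 days (181, the others 281 to 304). Adamts2 was high in knockout CCl4 replicate 2 of 4 h (220.004, the others 127 to 151) and low in knockout vehicle replicate 3 of 7 days (69.8, the others 129 to 147). Adamts5 was high in knockout vehicle replicate 3 of 12 h (71.2, the others 44.7 to 46.2).

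The CCl4 effect differed between times by limma's F test. In wild type the adjusted p was 3.25e-05 for Adamts1, 0.00113 for Adamts2, 0.000162 for Adamts4, 0.000773 for Adamts5, 0.00875 for Adamts9, 0.0176 for Adamts12 and 9.26e-05 for Adamts15. In the knockout it was 2.24e-05 for Adamts1, 0.0276 for Adamts5 and 0.00449 for Adamts9.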

How the results depend on the processing

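Of 22 member calls, 21 were kept with a pseudocount of 8, 22 with no filter, 21 with quantile scaling, 20 with all 80 libraries, 20 when each comparison was fitted on its own groups, and 17 without the mice numbered below 7000. No call reversed. A mean of at least 50 counts left 4 members tested and kept 15 of 15 calls. It gave 0 calls between genotypes after CCl4, 0 over 8 conditions, 1 for wild-type vehicle over time and 4 for the wild-type CCl4 effect over time. Quantile scaling, own groups, the replicate block and leaving out mice numbered below 7000 each gave 0 calls between genotypes after CCl4. With all 80 libraries 3 members changed over time in knockout vehicle livers. Without the mice numbered below 7000, wild-type vehicle at 24 h and wild-type CCl4 at 7 days each kept a single library. That fit cannot show whether the wild-type CCl4 effect over time depends on those mice. Leaving out wild-type CCl4 replicate 4 and vehicle replicate 5 of 24 h, chosen after seeing the data, kept all 22 calls.

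Leaving out 1 library at a time gave 10 to 11 calls for CCl4 in wild type and 9 to 11 in the knockout. It gave 0 to 0 for the interaction, 0 to 1 between genotypes after CCl4 and 0 to 1 after vehicle, and 1 to 1 over 8 conditions. Over time it gave 1 to 4 in wild-type vehicle livers, 7 to 7 for the wild-type CCl4 effect, 1 to 2 in knockout vehicle livers and 2 to 4 for the knockout CCl4 effect. The Adamts12 genotype difference ran from -1.42 to -1.33, and was -0.87 with a pseudocount of 8. The rise of Adamts12 in the knockout at 24 h was lost with a pseudocount of 8 (adjusted p = 0.0871) and with own groups (0.0874). Its genotype difference 24 h after CCl4 was lost with quantile scaling (0.0936), own groups (0.171) and the block (0.0572). The causes of these changes were not tested.

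Replicate numbers did not pair the samples: over 38 same-numbered pairs the deviations had a median r of -0.010, and the replicate block kept 21 of 22 calls. The count-based test listed as an alternative was not run. Few reads limit Adamts12 most, with a median of 12 over all libraries.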

Other observations

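Proprotein convertases, which remove the prodomain of ADAMTS enzymes, included genes that moved in opposite directions at 4 h and genes that fell later. Pcsk6 rose at 4 h by 0.86 ± 0.17 in wild type and 0.60 ± 0.17 in the knockout. Pcsk4 fell at 4 h, with differences of -2.45 ± 0.31 and -2.03 ± 0.31. At 12 h, of 6 measured, 1 rose and 3 fell in wild type (29.0% and 29.4% of all genes) and none rose and 4 fell in the knockout (23.6% and 23.1%; 1 fell with all 80 libraries), among them Pcsk5 (-1.12 ± 0.15 and -0.91 ± 0.17) and Pcsk7 (-0.70 ± 0.11 and -0.43 ± 0.12). At 24 h 3 fell in wild type and 4 in the knockout (25.0% and 23.0% of all genes), and Furin was among them in both genotypes (-0.58 ± 0.12, adjusted p = 7.95e-05, and -0.49 ± 0.12, adjusted p = 0.000927).

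Hyaluronan is the glycan that versican and aggrecan bind. Of 8 hyaluronan genes measured, 2 rose and 1 fell in wild type at 4 h (23.1% and 20.5% of all genes). In the knockout 2 rose and 2 fell (21.1% and 17.7%). These counts are near the shares of all genes. Hapln4, a link protein, rose at 4 h (1.35 ± 0.35 and 0.92 ± 0.35), as did Cemip2, a hyaluronidase (0.70 ± 0.22 and 0.67 ± 0.22), while Hyal2, another hyaluronidase, fell (-0.76 ± 0.10 and -0.99 ± 0.10). At 12 h 4 of 8 fell in wild type (29.4% of all genes) and 2 in the knockout (23.1%). With all 80 libraries 0 fell in the knockout (6.26% of all genes). Stab2, the clearance receptor of sinusoidal endothelium, was among those that fell in the main fit (-2.02 ± 0.29 in wild type, adjusted p = 1.1e-08, and -1.02 ± 0.32 in the knockout, adjusted p = 0.00641, or 0.138 with all 80 libraries). Stab2 also belongs to the list of sinusoidal endothelial markers above. What part the number of these cells plays in its fall was not tested. Cd44, a hyaluronan receptor of leukocytes, was the 1 that rose at 24 h in both genotypes (1.04 ± 0.36 and 1.41 ± 0.36), when 7 of 8 macrophage genes rose. At that time 26.2% of all genes rose in wild type and 21.1% in the knockout.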
